A study of Homo sapiens with 2 samples.

Results

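The miR-28, miR-151 and miR-708 related family is a group of small regulatory RNAs cut from hairpins of similar sequence. Its members were chosen by name and not by a threshold on their values, though with earlier results of these data known. They are miR-28-5p, miR-28-3p, miR-151a-5p, miR-151a-3p, miR-151b and miR-708-5p. Of these 6 names, 5 had an entry among the 1178 miRNA names of the deposited table. miR-708-5p had none and is not analysed here. Small RNAs were sequenced from 2 cultures of UM-SCC6, a cell line of human squamous carcinoma of the mouth. UM-SCC6-M was derived from the line by 3 rounds of collecting, in a microfluidic chip, the cells that crossed a matrix channel, with regrowth between rounds, and its label describes high invasiveness and some mesenchymal traits. UM-SCC6 was the parental line, with 0 such rounds. No agent or genetic change is named for either. Each culture gave 1 library, so differences are descriptions of these libraries, with no replicates and no test of the cultures.

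MicroRNAs (miRNAs) guide the silencing machinery to messenger RNAs that pair with their seed, bases 2 to 8 from the 5′ end. Each hairpin yields a 5p and a 3p product, and usually 1 of them is kept more than the other. The hairpins of miR-28 and miR-151a are thought to descend from the same class of ancient transposon. miR-28-5p and miR-708-5p belong to the same seed family, whereas miR-151a-5p resembles them with its start shifted, which gives it another seed. miR-151b is annotated as a shorter product of nearly the same sequence as miR-151a-5p. In colorectal cancer cells the 5p and 3p products of miR-28 have been reported to act differently on growth and migration, and in liver cancer miR-151a-5p has been reported to promote migration together with its host gene product.

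Mature sequences from the RefSeq table (GRCh38.p14) show how part of the family is related. They are given for miR-28-3p, the only measured member with a mature entry there. They are also given for both products of the related miR-708 hairpin, and for miR-3139, which shares the 5p seed. Capitals mark the seed.
miR-28-3p: cACUAGAUugugagcuccugga
miR-708-3p: cAACUAGAcugugagcuucuag
miR-708-5p: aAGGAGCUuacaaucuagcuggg
miR-3139: uAGGAGCUcaacagaugccuguu
The positions are chr3:188688834-188688855 (plus strand) for miR-28-3p, chr11:79402032-79402053 (minus) for miR-708-3p, chr11:79402077-79402099 (minus) for miR-708-5p and chr4:143343469-143343491 (plus) for miR-3139. With a shift of 1 base, 17 of 21 aligned bases of miR-28-3p and miR-708-3p were identical, and their longest shared run was UGUGAGCU. Their seeds differ. The RefSeq table has no mature entry for miR-28-5p, miR-151a-5p, miR-151a-3p or miR-151b, so their seeds could not be searched. Among the 2370 mature names it does hold, the seed ACUAGAU belonged to miR-28-3p alone. The seed AGGAGCU of miR-708-5p was found also in miR-3139. miR-28-3p holds AGCUCCU, the reverse complement of that 5p seed, at bases 13 to 19. miR-3139 was listed at 0 in both libraries. miR-708-3p had no entry under its name.

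The hairpins lie within genes of adhesion and the cytoskeleton (GENCODE release 29, GRCh38). MIR28 (chr3:188688781-188688866, plus strand) is in an intron of LPP, whose LIM domain protein sits at focal adhesions. MIR151A (chr8:140732564-140732653, minus strand) is in an intron of PTK2, the gene of focal adhesion kinase. MIR708 (chr11:79402022-79402109, minus strand) is in an intron of TENM4, also called ODZ4, a teneurin of the cell surface. These 3 hairpins run in the same direction as their host genes. MIR151B (chr14:100109419-100109514, minus strand) lies within an intron of EVL, an actin regulator, on the opposite strand.

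Values are normalized reads, the authors' scaled read signal. Every value was a whole multiple of the worth of 1 read, which was 0.119 for UM-SCC6-M and 0.133 for UM-SCC6. This gave 7699490 recovered reads for UM-SCC6-M and 8182958 for UM-SCC6. Log2 ratios are UM-SCC6-M over UM-SCC6. Brackets hold exact 95% intervals that cover counting error only, and not variation between cultures. Reads copied by PCR are not independent molecules, so the intervals may be too narrow even for counting error. A difference was called by size alone, at 2-fold or more where the larger of the values was 50 normalized reads or above. In bulk RNA, fewer cells making a miRNA and less of it per cell cannot be told apart.

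miR-28-3p was higher in the invasive culture. It had 1665 normalized reads in UM-SCC6-M and 803 in UM-SCC6, on 13945 and 6040 reads. This was 2.07-fold (2.01 to 2.14), a log2 ratio of 1.05. It was the 49th most abundant miRNA name in UM-SCC6-M and the 71st in UM-SCC6. Of the 3 members that reached 50 normalized reads it was the only one called. Over all 179 miRNAs at that level, 7.26% were called higher in UM-SCC6-M, and 12.8% lower. A single member called of 3 gives no basis for a statement about the family. Its ratio ranked 11th of 179, and 4th of the 70 miRNAs that reached 1000 normalized reads in either library, of which 5.71% were called higher. Names with near-identical reads, such as miR-374b-5p and miR-374c-3p, were each counted in these ranks and shares. The lower bound of the interval of miR-28-3p lay just beyond 2-fold. In the authors' deposited table its log2 fold change was 1.0528 with a q-value of 3.28e-102, which compares these libraries and not the conditions. The deposited q-value of miR-151a-3p was listed as 0, that of miR-151a-5p as 7.3e-05 and that of miR-151b as 0.991.

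miR-28-5p, the minor product of the same hairpin, also had the larger value in UM-SCC6-M. It had 47.4 normalized reads in UM-SCC6-M and 34.2 in UM-SCC6, on 397 and 257 reads. The log2 ratio was 0.47 (0.24 to 0.71), or 1.39-fold. Both values lay below the floor of 50, so it was not eligible for a call. In the authors' deposited table its q-value was 0.137. Summed over both arms, the miR-28 hairpin stood at 1713 normalized reads in UM-SCC6-M and 837 in UM-SCC6, a log2 ratio of 1.03 (0.99 to 1.08).

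miR-151a-3p was by far the most abundant member and was lower in the invasive culture. It had 10688 normalized reads in UM-SCC6-M and 20054 in UM-SCC6, on 89508 and 150911 reads. The log2 ratio was -0.91 (-0.92 to -0.90), so the level in UM-SCC6-M was 1.88-fold lower (1.86 to 1.89), short of the 2-fold needed for a call. It ranked 10th by abundance in UM-SCC6-M and 7th in UM-SCC6. Its share of all reads was 1.16% (1.15 to 1.17) in UM-SCC6-M and 1.84% (1.83 to 1.85) in UM-SCC6. Among those 70 abundant miRNAs its ratio was the 9th lowest of 70. At a threshold of 1.5-fold it would count as lower, as did 25.7% of the 179 miRNAs.

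miR-151a-5p, the minor product of the PTK2 hairpin, differed in the other direction. It had 156 normalized reads in UM-SCC6-M and 106 in UM-SCC6, on 1308 and 801 reads. The log2 ratio was 0.55 (0.43 to 0.68), or 1.47-fold, which is not a call. The hairpin as a whole followed its 3p product, at 10844 normalized reads in UM-SCC6-M and 20160 in UM-SCC6.

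miR-151b was the least abundant member. It had 5.49 normalized reads in UM-SCC6-M and 4.92 in UM-SCC6, on 46 and 37 reads. The log2 ratio of 0.16 had an interval of -0.50 to 0.82, so a difference was not detectable at this depth. Because its sequence is contained in that of miR-151a-5p, reads can belong to either name. Of the reads of both names together, miR-151b held 3.40% (2.50 to 4.51) in UM-SCC6-M and 4.42% (3.13 to 6.03) in UM-SCC6. These intervals overlap. Which locus the reads came from was not tested. miR-342-3p, from a hairpin in the same intron of EVL on the other strand, had 112 normalized reads in UM-SCC6-M and 122 in UM-SCC6, with a log2 ratio of -0.13 (-0.26 to 0.00).

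**Figure D1:**
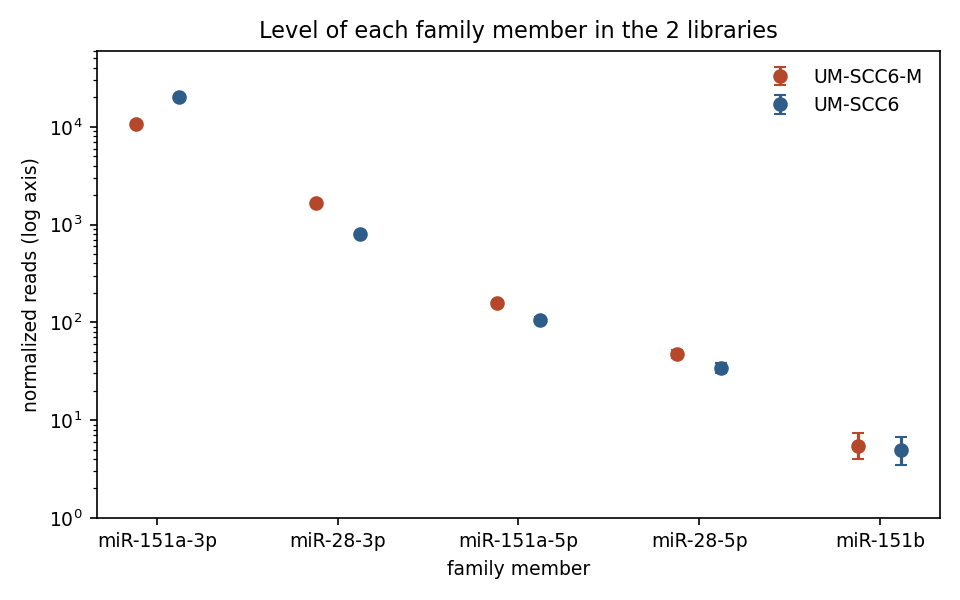
Normalized reads (log axis) of the 5 members with an entry, in UM-SCC6-M (left point of each pair) and UM-SCC6 (right point), with exact 95% Poisson intervals that cover counting error only. miR-151a-3p is lower in UM-SCC6-M, at 10688 against 20054, and miR-28-3p is higher, at 1665 against 803.

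The order of the members by level was the same in both libraries. miR-151a-3p was followed by miR-28-3p, miR-151a-5p, miR-28-5p and miR-151b, and each step in that order exceeded counting error. The distances between them were not the same. miR-151a-3p had 6.42 times (6.31 to 6.53) the reads of miR-28-3p in UM-SCC6-M and 25.0 times (24.4 to 25.6) in UM-SCC6, a comparison within each library that no scaling can change. The 5p products kept closer proportions, with 3.29 times (2.94 to 3.70) as many reads of miR-151a-5p as of miR-28-5p in UM-SCC6-M and 3.12 times (2.70 to 3.60) in UM-SCC6.

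The summed level of the 5 members was 12562 normalized reads in UM-SCC6-M and 21002 in UM-SCC6, a log2 ratio of -0.74 (-0.75 to -0.73). That sum describes miR-151a-3p, which supplied 85.1% of its reads in UM-SCC6-M and 95.5% in UM-SCC6. Without miR-151a-3p the sum of the other 4 was 1874 normalized reads in UM-SCC6-M and 948 in UM-SCC6, with the opposite sign, at 0.98 (0.94 to 1.02). Summed by arm, the 3 5p products had 209 normalized reads in UM-SCC6-M and 146 in UM-SCC6, with a log2 ratio of 0.52. The median log2 ratio of the 5 members was 0.47, with miR-28-5p and miR-151b below the floor of 50 normalized reads. That of all 179 miRNAs at 50 or more normalized reads was 0.04, and that of 288 at 10 or more was -0.08. Of the 5 ratios 4 lay above 0, including that of miR-151b, whose interval spans 0. Arms of the same hairpin, and miR-151b with miR-151a-5p, are not independent, so no family-wide difference is read from this.

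**Figure D2:**
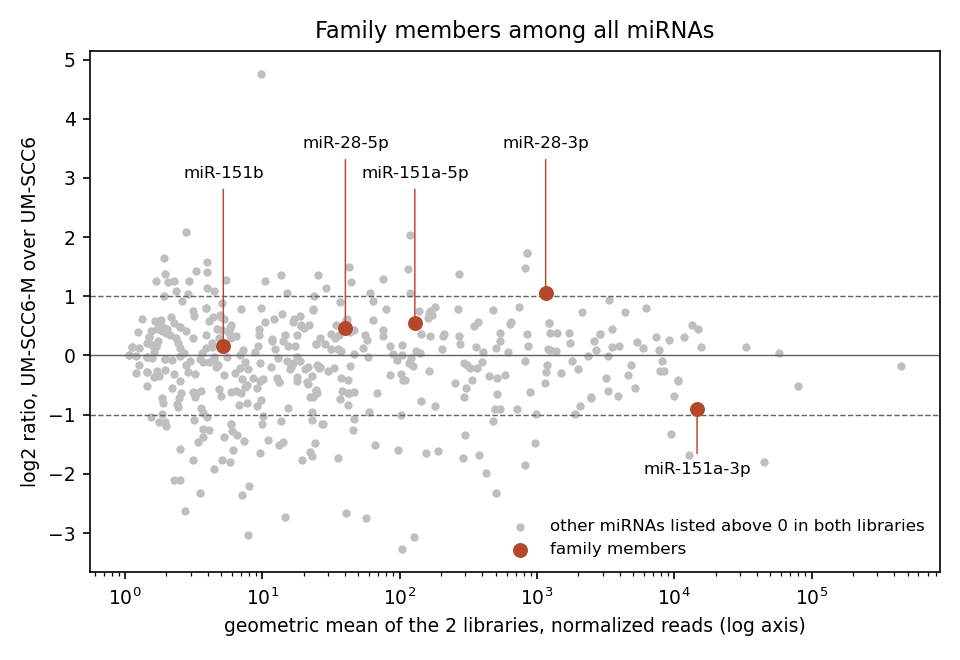
Log2 ratio of UM-SCC6-M over UM-SCC6 against the geometric mean of the libraries in normalized reads (log axis), for miRNA names listed above 0 in both, with the family members in red and dashed lines at 2-fold. Among the members miR-28-3p lies just beyond the upper line at 1.05 and miR-151a-3p just inside the lower line at -0.91.

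The balance between the arms was compared next, because it is free of the scaling between libraries. Both hairpins were dominated by their 3p product in both libraries. For miR-151a the 5p product made up 1.44% (1.36 to 1.52) of the hairpin's reads in UM-SCC6-M and 0.53% (0.49 to 0.57) in UM-SCC6. For miR-28 it made up 2.77% (2.51 to 3.05) in UM-SCC6-M and 4.08% (3.61 to 4.60) in UM-SCC6. The hairpins of the family thus differed between the cultures in opposite directions, miR-151a toward 5p and miR-28 toward 3p. Expressed as a ratio of arms, miR-151a-3p exceeded miR-151a-5p 68.4-fold in UM-SCC6-M and 188-fold in UM-SCC6, while miR-28-3p exceeded miR-28-5p 35.1-fold in UM-SCC6-M and 23.5-fold in UM-SCC6.

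The difference in log2(5p/3p), UM-SCC6-M minus UM-SCC6, was 1.46 with a counting standard error of 0.06 for miR-151a. It was -0.58 with a standard error of 0.12 for miR-28. There were 70 hairpins whose arms each reached 10 normalized reads in at least 1 library, a floor that keeps both arms of miR-28. Among them the miR-151a difference ranked 4th toward 5p and the miR-28 difference 50th. A difference of 1 or more toward 5p was found for 14.3% of these hairpins. A difference of 0.5 or more toward 3p, as for miR-28, was found for 31.4%. The median over the 70 was 0.01. The hairpins of miR-423 and miR-3184, whose entries hold near-identical reads, were both counted. The 5 hairpins nearest to miR-151a in this measure were those of miR-148a, miR-21, miR-374b, miR-99b and miR-126, and the 5 nearest to miR-28 were those of let-7e, miR-106b, miR-483, miR-200a and miR-652. The value of miR-483 has a counting standard error of 0.66, since its arms had only 7 and 14 reads in UM-SCC6.

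The arms of miR-151a lay on opposite sides of 0, each by at least 0.5 in log2 ratio. This applied to 3 of the 70 hairpins, or 4.29%, the others being miR-126 and miR-181a. Without a minimum size, the arms of 27 of the 70 lay on opposite sides of 0. With the minimum of 0.5, scaling to total reads gave 6 such hairpins, or 8.57%, and miR-151a was again among them. miR-126-5p was at 0.78 and miR-126-3p at -0.90, the same orientation as in miR-151a. In miR-181a the orientation was the reverse, with miR-181a-5p at -0.91 and miR-181a-3p at 0.56. That criterion was set after the values of miR-151a had been seen.

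**Figure D3:**
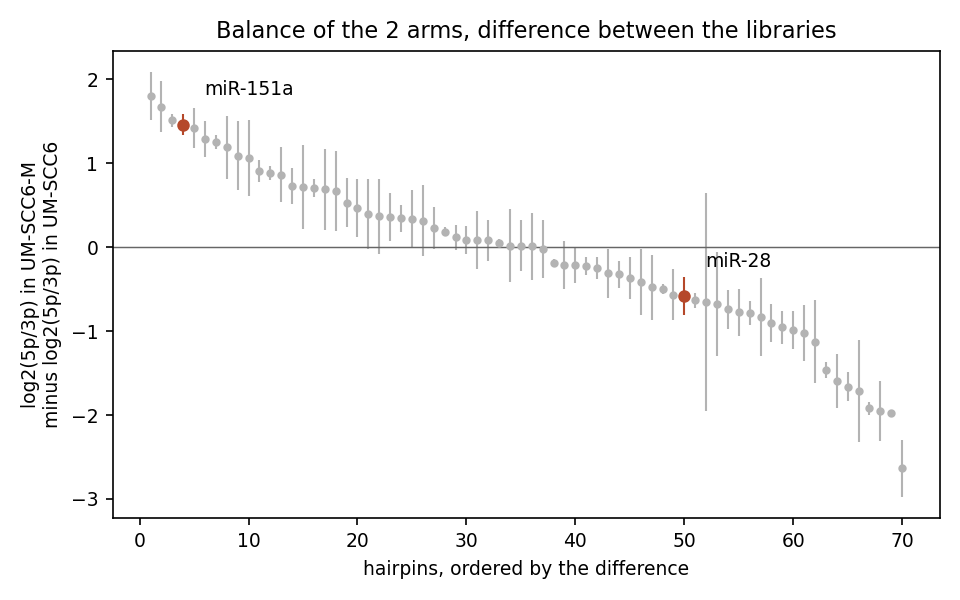
Difference in log2(5p/3p), UM-SCC6-M minus UM-SCC6, for 70 hairpins whose arms each reached 10 normalized reads in at least 1 library, ordered from high to low, with 95% counting intervals. miR-151a, at 1.46, stands 4th of 70 and miR-28, at -0.58, stands 50th.

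The miRNAs with the most similar ratios were taken from the 179 above the floor, as a description over 2 libraries. Nearest to miR-28-3p were miR-199b-5p at 1.05, miR-365a-5p at 1.05 and let-7b-5p at 0.93. Nearest to miR-151a-5p were miR-19b-3p, miR-181a-3p and miR-423-5p, at 0.55, 0.56 and 0.55. Nearest to miR-151a-3p were miR-3615, miR-181a-5p and miR-126-3p, at -0.91, -0.91 and -0.90.

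Location in an intron or in a chromosome region was examined with lists of named miRNAs. Of 30 miRNAs from introns of coding genes, all had an entry and 24 reached 50 normalized reads. Of these 1 was called higher, miR-483-3p from IGF2, and 4 lower, miR-30e-5p, miR-32-5p, miR-455-5p and miR-218-5p, against 7.26% called higher and 12.8% lower of all 179. Their median log2 ratio was -0.03, against 0.04 for all 179. On chromosome 3, 4 of 6 listed neighbours of MIR28 had an entry and none reached 10 normalized reads. miR-944, from the gene TP63 of squamous identity, was listed at 0 in both libraries, and miR-1248 had 9 reads in UM-SCC6-M and 8 in UM-SCC6. On the long arm of chromosome 8, 7 of 13 listed names had an entry, 3 reached 10 normalized reads and 2 reached 50. Neither of these 2, miR-30b-5p and miR-30d-5p, was called, against 7.26% higher and 12.8% lower of all 179. Both arms of miR-30d lay near each other, with miR-30d-5p at -0.68 and miR-30d-3p at -0.69, and miR-30b-5p was at 0.09.

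Other miRNAs reported to act on integrins or other genes of adhesion, the machinery to which PTK2 and LPP belong, were listed for comparison. Of 14 names, 13 had an entry and 6 reached 50 normalized reads. None was called higher and 2 were called lower, miR-29b-3p at 43.8 normalized reads in UM-SCC6-M and 366 in UM-SCC6, and miR-218-5p at 16.0 in UM-SCC6-M and 102 in UM-SCC6. Over all 179 miRNAs at that level 12.8% were called lower and 7.26% higher. Below the floor, miR-328-3p went the other way, at 1.36 (1.05 to 1.67) on 340 reads in UM-SCC6-M and 119 in UM-SCC6, and miR-138-5p was at -1.48. The more abundant miR-29a-3p was at -0.68, miR-7-5p at -0.42, miR-183-5p at -0.01 and miR-31-5p at -0.07. The median of the 6 was -0.55, against 0.04 for all 179. The values of the 179 had quartiles of -0.61 and 0.41. This list, with miR-218-5p in it, was chosen with earlier results of these data known. Its counts and median are therefore a description and not independent evidence.

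Markers of cell types were listed beside the label, and several of the squamous or epithelial names were low or absent. Of 9 squamous or epithelial miRNAs, 7 had an entry, with a summed level of 19717 normalized reads in UM-SCC6-M and 16443 in UM-SCC6. Most of that sum was miR-200b-3p, at 0.45, whereas miR-200a-3p was at -0.99, miR-429 at -0.09 and miR-31-5p at -0.07, and the median of the 4 at 50 or more normalized reads was -0.08. miR-203a-3p had only 23 reads in UM-SCC6-M and 7 in UM-SCC6, and miR-200c-3p only 15 in UM-SCC6-M and 20 in UM-SCC6. miR-944 was listed at 0, and miR-205-5p and miR-141-3p had no entry under their names. The 6 fibroblast markers summed to 113 normalized reads in UM-SCC6-M and 64.6 in UM-SCC6, with miR-145-5p and miR-214-3p at 0 in both, and went both ways. miR-199b-5p, the only fibroblast marker to reach 50 normalized reads, was called higher at 1.05, nearly the ratio of miR-28-3p. Below that floor, miR-199a-3p was also at 1.05, while miR-143-3p was at -1.34 (-1.98 to -0.75). miR-199a-5p had 1 read in UM-SCC6-M and 13 in UM-SCC6. The endothelial pair of miR-126 products summed to 550.5 in UM-SCC6-M and 986 in UM-SCC6. Of 4 blood markers 3 had an entry, with miR-142-3p and miR-451a at 0 in both, and these summed to 17.9 in UM-SCC6-M and 24.6 in UM-SCC6. The muscle markers summed to 111 in UM-SCC6-M and 337 in UM-SCC6, with 2 of 3 having an entry. Most of this was miR-1-3p, called lower at -1.61, with 109 in UM-SCC6-M and 333 in UM-SCC6. Over all 179 miRNAs at 50 or more normalized reads, 7.26% were called higher and 12.8% lower. The part of these cell types in the values of the family was not tested.

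Choice of scaling did not turn the sign of any of the 5 members. miR-28-3p ranged from 1.03 to 1.29, miR-28-5p from 0.45 to 0.71, miR-151a-5p from 0.53 to 0.79 and miR-151a-3p from -0.93 to -0.67. miR-151b ranged from 0.14 to 0.40, within its counting interval.

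**Figure D4:**
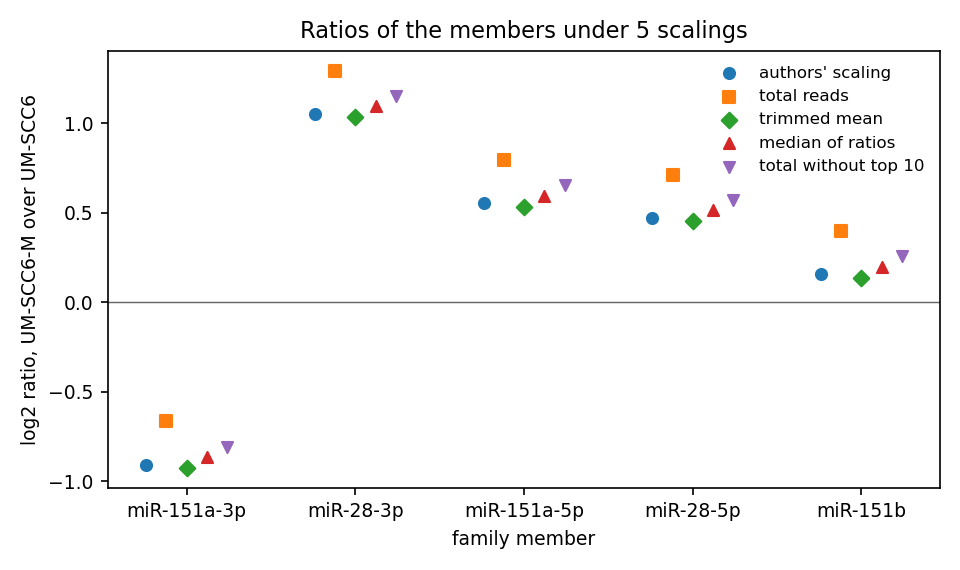
Log2 ratio of UM-SCC6-M over UM-SCC6 of each member under the authors' scaling and 4 others. miR-28-3p stays above 1 in all 5 and miR-151a-3p stays between -0.93 and -0.67.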

How the data were processed

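Small RNA libraries were made by adapter ligation from 3 µg of total RNA, with gel selection, per the labels' protocols. Bowtie, a read aligner, is listed per the submitters' processing notes. Read counting, scaling, genome build and miRNA annotation are each not given in the sources used here. From the authors came 1 deposited table of 1213 entries with a scaled read signal per library. Values were whole multiples of 1 step per library, within 7.2e-05 reads, and division by the step gave reads. Listed values began at 9 reads in UM-SCC6-M and 8 in UM-SCC6, below which the signal is 0. Where 1 library was at 0, its reads followed from the deposited log2 fold change, so that both libraries were known for 555 entries. The authors' deposited log2 fold changes, p-values and q-values were copied only.

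Log2 ratios used the authors' scaling with 0.5 reads added to each library. Intervals were Clopper-Pearson intervals of the fraction of a miRNA's reads found in UM-SCC6-M, turned into ratios, and those of arm differences from the counting standard error. How an aligner assigns reads shared by near-identical names, such as miR-151a-5p and miR-151b, affects both values. The calls and intervals were checked on simulated data with counting error only. The simulated differences were either absent or well beyond 2-fold, so calls near 2-fold were not checked. The members and lists were chosen with earlier results of these data known. Named were all members, the other products of their hairpins, the 3 nearest in ratio to each member at 50 or more normalized reads, the 5 nearest hairpins in arm difference, and of each list up to 4 members by abundance and any called. Single list members beyond these, miR-342-3p and the hairpins with opposite arms were named after their values were seen. Alternatives were total reads, a trimmed mean of M-values, the median of ratios, the total without the 10 most abundant miRNAs, other floors, thresholds and added reads, and other sums. Python 3.11.15 was used with numpy 2.4.6, pandas 2.3.3, scipy 1.17.1 and matplotlib 3.10.9.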

Additional observations from a re-analysis of the deposited data

How the results depend on the processing

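The count of members called, 1, was the same under 8 of 9 alternatives, which were the 4 other scalings, floors of 0, 10 and 200 normalized reads, and intervals wholly beyond 2-fold. It was 2 at a threshold of 1.5-fold, where miR-151a-3p also passes. Arm differences of miR-28 and miR-151a moved by less than their counting error under the 3 alternatives tried for them. Scaling to total reads raised every log2 ratio by 0.24, giving 0.71 for miR-28-5p, 1.29 for miR-28-3p, 0.79 for miR-151a-5p, -0.67 for miR-151a-3p and -0.50 for the sum. The total without the 10 most abundant miRNAs gave 1.15 for miR-28-3p, -0.81 for miR-151a-3p and -0.64 for the sum. The trimmed mean gave -0.93 for miR-151a-3p and -0.76 for the sum, and the median of ratios gave -0.86 and -0.70. The sign of the sum turned to 0.47 when only members with the seed of miR-28-5p were taken, of which miR-28-5p had an entry and miR-708-5p had none, and to 0.98 without miR-151a-3p, an alternative added after seeing the data.

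Shares rise by construction with a smaller total. Without the 10 most abundant miRNAs they were, in UM-SCC6-M and then UM-SCC6, 0.0195% and 0.0131% for miR-28-5p, 0.684% and 0.307% for miR-28-3p, 0.0641% and 0.0408% for miR-151a-5p, and 0.00225% and 0.00188% for miR-151b. miR-151a-3p is itself among those 10 and has no such value. With 1 name per pair of near-identical entries they were 0.185% in UM-SCC6-M for miR-28-3p, and 1.18% in UM-SCC6-M and 1.88% in UM-SCC6 for miR-151a-3p. No paired analysis was possible because each group has 1 library. Variation between cultures was not measured, and depth limits miR-151b and, in the minor arms, miR-28-5p.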
